A study of Homo sapiens with 8 samples.

Results

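The aldo-keto reductases examined here were 7 genes of 62649 in the deposited table, picked by gene name: AKR1A1, AKR1B1, AKR1B10, AKR1C1, AKR1C2, AKR1C3 and AKR7A2. Their RNA was read in AsPC-1 and PANC-1, established human pancreatic cancer cell lines whose genotype is labelled WT. Both lines were grown as spheroids in methylcellulose for 3 days and then given 24 h of one of 4 treatments, which were vehicle (not named further), roseoflavin at 10 µM, trametinib at 1 nM, or the 2 compounds together. Roseoflavin is an analogue of riboflavin, and trametinib inhibits the MEK kinases of the MAPK pathway. There was 1 library for each line and treatment, 8 in all, so no treatment of a line was replicated.

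Aldo-keto reductases use NADPH to reduce aldehydes and ketones to alcohols, among them sugars, retinaldehyde, steroids, prostaglandins and aldehydes made by lipid oxidation. Several of them, AKR1B10 and the AKR1C genes in particular, are known targets of NRF2, the factor that KEAP1 holds down until electrophiles or oxidants modify KEAP1. NRF2 binds a short DNA motif called the antioxidant response element and also drives genes for glutathione synthesis, NADPH supply and quinone reduction.

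Among the AKR1 genes, AKR1C1 and AKR1C2 are so alike that short reads cannot always be assigned to one of them. The 3 AKR1C genes lie side by side on chromosome 10 (GRCh38, GENCODE 29), AKR1C1 at chr10:4963253-4983283 on the plus strand, AKR1C2 at chr10:4987400-5018031 on the minus strand and AKR1C3 at chr10:5035354-5107686 on the plus strand. Over the aligned coding sequence AKR1C2 differed from AKR1C1 at 19 of 972 bases (98.1% identical) and AKR1C3 differed from AKR1C1 at 83 of 972 (91.5% identical). The first 150 coding bases are shown as an example. Capitals in the lines of AKR1C2 and AKR1C3 mark each base that differs from AKR1C1.
AKR1C1: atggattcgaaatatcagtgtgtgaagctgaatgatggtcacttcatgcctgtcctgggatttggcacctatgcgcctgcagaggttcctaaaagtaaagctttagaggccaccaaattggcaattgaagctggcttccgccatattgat
AKR1C2: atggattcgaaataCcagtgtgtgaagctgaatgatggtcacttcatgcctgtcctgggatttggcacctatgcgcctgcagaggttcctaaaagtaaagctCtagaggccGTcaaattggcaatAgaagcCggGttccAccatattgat
AKR1C3: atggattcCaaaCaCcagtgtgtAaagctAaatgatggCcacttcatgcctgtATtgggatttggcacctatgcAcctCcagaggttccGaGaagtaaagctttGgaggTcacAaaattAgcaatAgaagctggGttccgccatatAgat
In this stretch 8 bases of AKR1C2 and 19 bases of AKR1C3 are in capitals. Both genes thus differ from AKR1C1 more often here than over the whole coding sequence. Of all 50-base windows of the reference transcript, 52.2% for AKR1C2 also occur in a transcript of another gene, against 28.7% for AKR1C1 and 12.1% for AKR1C3. With windows of 100 bases the shares were 32.9%, 17.4% and 4.98%. These reference transcripts were 3756 bases long for AKR1C2, 6705 for AKR1C1 and 1807 for AKR1C3. AKR1C1 and AKR1C2 had the same number of windows in common with each other, at 50 and at 100 bases. The lower share of AKR1C1 thus mainly reflects its longer transcript, and does not show that its reads were easier to assign. For the other members the shares at 50 bases were 17.4% for AKR1B10, whose closest copy is AKR1B15, 8% for AKR7A2, 4.78% for AKR1B1 and 0% for AKR1A1. How the counting dealt with shared reads is not given in the sources used here, so the split between AKR1C1 and AKR1C2 is uncertain. AKR1C2 also overlaps the antisense gene AL391427.1, which was listed at 0 in every PANC-1 library and at 0 to 0.458 TPM in those of AsPC-1. Whether the counting used the strand is not given either.

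AKR1C1 and AKR1C2 also share their upstream sequence. Over the 250 bases before each start in the RefSeq promoter table (GRCh38.p14), 245 of 246 aligned bases were identical, against 76.8% and 79.8% for AKR1C1 with the 2 starts listed for AKR1C3. The stretches that no annotated exon covers are printed here, AKR1C1 from chr10:4963165-4963252 on the plus strand and AKR1C2 from chr10:5004024-5004107 on the minus strand, and all 84 aligned bases of the pair were identical.
AKR1C1: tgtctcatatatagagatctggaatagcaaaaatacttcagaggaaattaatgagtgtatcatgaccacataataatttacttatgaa
AKR1C2: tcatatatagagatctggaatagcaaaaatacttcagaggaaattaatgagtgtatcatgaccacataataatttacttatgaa
The antioxidant response element was searched in its core form TGACNNNGC on both strands, where N is any base, in the window from 250 bases before to 50 bases after each start, and no other motif was searched. The core was found in 1 of the 6 members with a table entry, AKR7A2, and in 4687 of all 35116 promoters (13.3%). AKR1B10 has no entry. AKR7A2 held 3 matches, in capitals in its upstream sequence from chr1:19312147-19312396 on the minus strand.
AKR7A2: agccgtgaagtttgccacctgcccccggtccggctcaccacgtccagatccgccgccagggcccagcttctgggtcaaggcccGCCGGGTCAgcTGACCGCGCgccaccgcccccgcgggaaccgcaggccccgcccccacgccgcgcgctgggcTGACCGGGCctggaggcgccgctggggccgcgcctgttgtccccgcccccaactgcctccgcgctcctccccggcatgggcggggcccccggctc
The first and second matches sit 2 bases apart on opposite strands. The 26 other NRF2 targets listed for this work had a match in 8 of the 17 with an entry (GCLM, TXNRD1, PGD, ME1, CBR1, EPHX1, MGST1 and PIR). A match is a description of these letters only, and a window this short says nothing about elements farther away.

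Levels are given in TPM, a transcript abundance that is corrected for gene length and scales every library to the same total, so levels of different genes can be compared within a library. TPM keeps no sequencing depth, and a gene listed at 0 may lie below what that depth could show. Changes are given as differences of log2(TPM + 1), on which genes near 0 appear to change less than they do. The test took in the 19122 genes that reached 1 TPM in 2 libraries or more, fitted together with limma, and a gene was called when its Benjamini-Hochberg adjusted p was under 0.05. In these fits the other treatments of a line stand in for replicates, and within a line each compound is judged from 2 libraries with it against 2 without. Since nothing says how far the libraries are separate cultures, the p-values measure the spread between these libraries, which may be technical. In the fits within a line, a gene's own spread is the departure of the combination from the sum of the compounds, pooled over both lines. A gene near 0 in a line can hardly vary there on this scale, so its intervals may be too narrow. The genes of the mitochondrial genome took 41.2% to 44.1% of TPM in AsPC-1 and 22.8% to 25.6% in PANC-1, which moves every other level. EPCAM, an epithelial marker, was at 1224 to 1485 TPM in AsPC-1 and 14.5 to 16.8 TPM in PANC-1, and VIM, a mesenchymal marker, at 660 to 816 and 3132 to 3391 TPM. Leukocyte and endothelial markers (PTPRC, CD3E, PECAM1, CDH5) stayed at or under 0.073 TPM, CD14 was at 3.30 to 4.10 TPM in AsPC-1 and 0.473 to 1.62 TPM in PANC-1, and of the fibroblast markers LUM reached 103 to 146 TPM in AsPC-1 and COL1A1 98.9 to 107 TPM in PANC-1.

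The members split by line. AKR1B10, AKR1C1, AKR1C2 and AKR1C3 were present in AsPC-1 and near 0 in PANC-1, AKR1B1 was present in PANC-1 and near 0 in AsPC-1, and AKR1A1 and AKR7A2 were present in both. Of the 7, then, 4 were at 1 TPM or more in every AsPC-1 library and under 1 TPM in every PANC-1 library, and 1 the other way. Among the 17276 genes at 1 TPM or more in all libraries of at least 1 line, the first pattern held for 968 (5.60%) and the second for 2127 (12.3%).

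**Figure D1:**
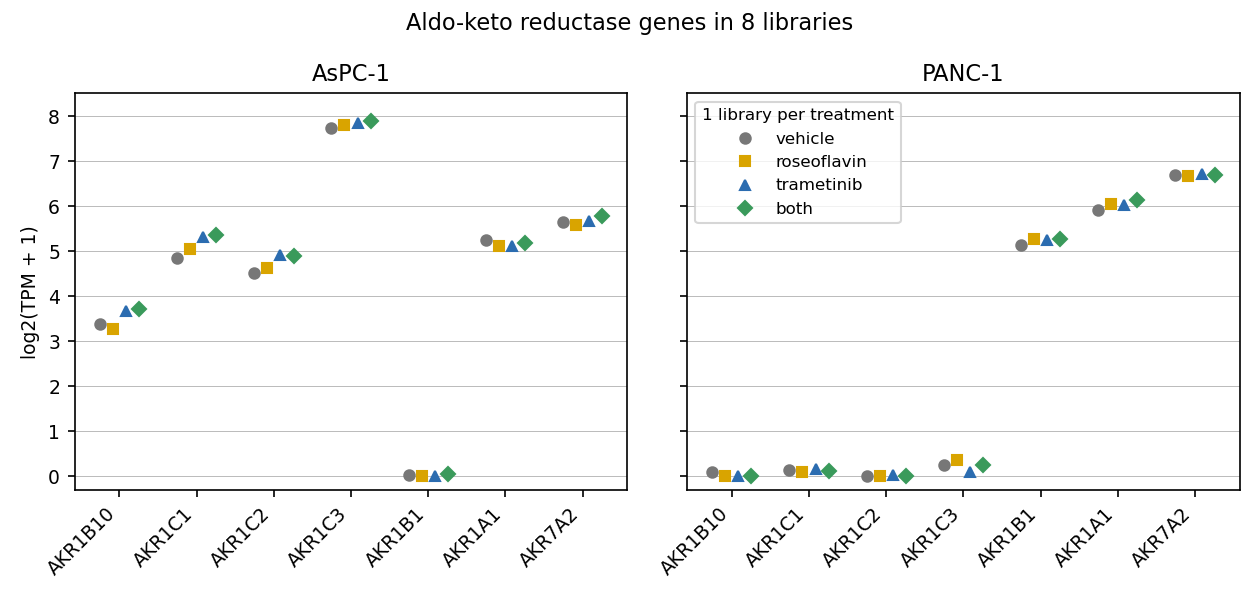
Level of each aldo-keto reductase gene in log2(TPM + 1) (vertical axis) for the 4 AsPC-1 libraries (left) and the 4 PANC-1 libraries (right). Each point is 1 library, with colour and shape giving the treatment. AKR1B10 and the AKR1C genes are high on the left and near 0 on the right, and AKR1B1 is the reverse.

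AKR1C3, which makes testosterone from androstenedione and prostaglandin F from prostaglandin D, had the highest level of the 7 in AsPC-1. It was at 210.7 TPM with vehicle, 222.6 with roseoflavin, 230.6 with trametinib and 237.2 with both, a mean of 225.3 ± 11.4 (SD, n = 4 libraries, 1 per treatment). In PANC-1 it was at 0.199, 0.291, 0.073 and 0.189 TPM in the same order. No library of one line came near those of the other.

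AKR1C1, which inactivates progesterone, was at 27.7, 31.9, 38.7 and 40.1 TPM in AsPC-1 (vehicle, roseoflavin, trametinib, both) and at 0.071 to 0.115 TPM in PANC-1. AKR1C2, which inactivates dihydrotestosterone, was at 21.9, 23.5, 29.02 and 28.64 TPM in AsPC-1. In PANC-1 AKR1C2 was listed at 0 in 3 libraries and at 0.024 TPM in the trametinib library. The 3 AKR1C genes summed to 260.3 to 305.9 TPM in AsPC-1 and 0.212 to 0.362 TPM in PANC-1, and AKR1C3 made up 77.3% to 80.9% of the sum in AsPC-1. The ratio of AKR1C1 to AKR1C2 lay between 1.26 and 1.40 there. Both the share of AKR1C3 and this ratio depend on the assignment of shared reads, as stated above.

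AKR1B10, which reduces retinaldehyde and lipid aldehydes, was the lowest of the members present in AsPC-1, at 9.36, 8.66, 11.7 and 12.1 TPM. In PANC-1 it was at 0.063 TPM with vehicle and listed at 0 in the other 3 libraries. AKR1B10 lies at chr7:134527592-134541408 on the plus strand, and AKR1B1, aldose reductase, lies beside it at chr7:134442350-134459284 on the minus strand, with coding sequences that were 77.3% identical. AKR1B1 had the opposite pattern, with 34.3, 37.5, 36.8 and 37.6 TPM in PANC-1, and 0.027, 0, 0 and 0.029 TPM in AsPC-1.

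AKR1A1 (chr1:45550543-45570049, plus strand), the aldehyde reductase found in most tissues, was at 33.7 to 36.9 TPM in AsPC-1 and 59.1 to 69.6 TPM in PANC-1. AKR7A2 (chr1:19303965-19312146, minus strand), which reduces succinic semialdehyde and the dialdehyde of aflatoxin, was at 47.0 to 53.7 TPM in AsPC-1 and 100.2 to 103.7 TPM in PANC-1. Both were present in all 8 libraries and higher in each PANC-1 library than in any AsPC-1 library.

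Within AsPC-1 the order of levels was AKR1C3, AKR7A2, AKR1A1, AKR1C1, AKR1C2, AKR1B10 and AKR1B1. AKR1A1 was above AKR1C1 in the vehicle and roseoflavin libraries and below it in the other 2, so these neighbours had no fixed order. The ranges of AKR1C1 and AKR1C2 overlapped across treatments, but AKR1C1 was the higher in each of the 4 libraries, with shared reads as assigned. Within PANC-1 the order of the 3 present members was AKR7A2, AKR1A1 and AKR1B1, with no overlap between neighbours. The 7 genes together made up 355.4 to 407.2 TPM in AsPC-1 and 196.2 to 209.4 TPM in PANC-1.

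All 7 members passed the test for a difference between lines (limma, 4 libraries against 4), 3 higher in PANC-1 and 4 higher in AsPC-1, but so did 83.8% of all genes tested, and the lines did not overlap for 79.2% of them. The count therefore says little about these genes, and 5 of them passed the filter only through the line where they were high. The sizes were a PANC-1 minus AsPC-1 difference of -7.58 (SE 0.0623, adjusted p 1.64e-09) for AKR1C3, -5.01 for AKR1C1, -4.72 for AKR1C2, -3.48 for AKR1B10, 5.21 for AKR1B1, 0.87 for AKR1A1 and 1.02 for AKR7A2. The median over all genes was 0.55, and of the called genes 74.4% were higher in PANC-1. With quantile normalization that share was 52.6% and the median 0.042, AKR1A1 was at 0.40 and AKR7A2 at 0.58, and all 7 kept their direction. With a pseudocount of 0.1 in place of 1 the differences of the genes near 0 in one line grew by over 1.5 times for AKR1B10, AKR1C1, AKR1C2 and AKR1B1, to -6.53, -7.80, -7.93 and 8.34.

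The family's other genes followed no single line. AKR7A3, an aflatoxin aldehyde reductase whose coding sequence was 91.5% identical to AKR7A2, was at 114.9 to 146.5 TPM in AsPC-1 and 2.80 to 3.66 TPM in PANC-1. AKR7L was at 9.54 to 11.2 TPM and 0.299 to 0.467 TPM, and AKR1C4 at 2.74 to 4.70 TPM and 0 TPM. AKR1E2 was at 2.39 to 2.99 TPM in PANC-1, and in AsPC-1 at 0 in 3 libraries and 0.044 TPM in the one with both compounds. KCNAB2, a potassium channel beta subunit of the same fold, was at 3.97 to 5.98 TPM over both lines. AKR1B15, AKR1C8, AKR1D1 and KCNAB1 were under 1 TPM in all 8 libraries. Of the 10, 5 passed the filter (AKR1C4, AKR1E2, AKR7A3, AKR7L and KCNAB2).

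The next question was how the compounds moved the members within each line. With trametinib in AsPC-1, AKR1C1, AKR1C2 and AKR1B10 were at 1.22 to 1.40 times the level of the matching library without it, but no gene passed the test over all genes. In RNA from whole cultures, a change in the share of cells that hold a transcript and a change in RNA per cell cannot be told apart.

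**Figure D2:**
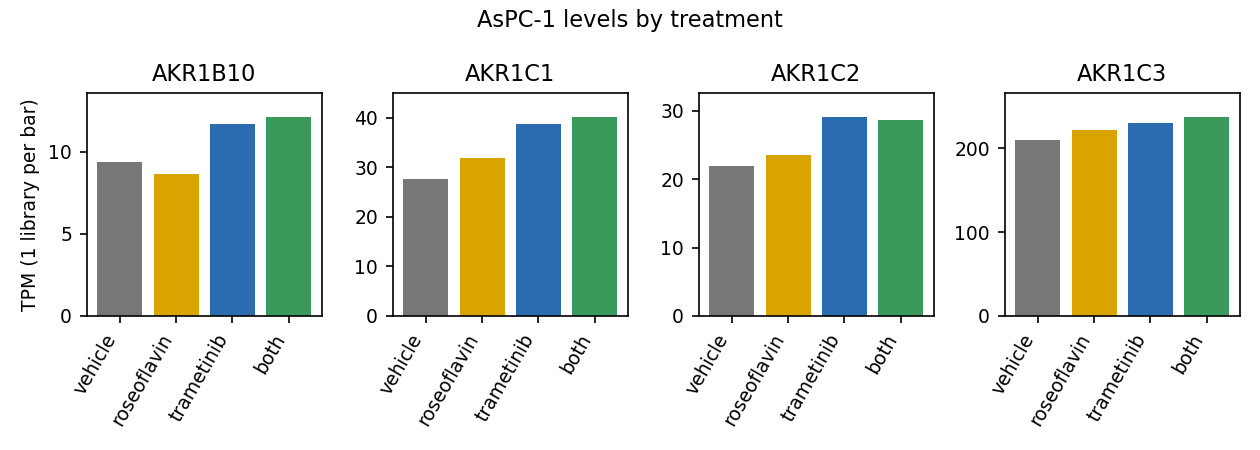
TPM of AKR1B10, AKR1C1, AKR1C2 and AKR1C3 in AsPC-1 (vertical axes start at 0 and differ between panels), with 1 bar for the single library of each treatment. For all 4 genes the trametinib bar and the bar with both compounds stand above the vehicle and roseoflavin bars.

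AKR1C1 was 1.40 times its vehicle level with trametinib alone, and 1.26 times its roseoflavin level when trametinib was added to roseoflavin. The estimated change was 0.39 (SE 0.0681, 95% interval 0.20 to 0.58), with an unadjusted p of 0.00482 and an adjusted p of 0.272 in limma. AKR1C2 was 1.32 and 1.22 times its partner level, a change of 0.33 (95% interval 0.14 to 0.52, adjusted p 0.278 in limma). AKR1B10 was 1.25 and 1.40 times its partner level, a change of 0.36 (95% interval 0.13 to 0.60, adjusted p 0.297 in limma).

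AKR1C3, with the highest level, was at 1.09 and 1.07 times its partner level, an estimate of 0.11 (95% interval -0.017 to 0.24). AKR7A2 had the same estimate, 0.11 (95% interval -0.040 to 0.26), which ran from 0.030 to 0.19 with each library left out in turn, and AKR1A1 had -0.025 (95% interval -0.20 to 0.15). With the 3 AKR1C genes added into 1 feature, most of which is AKR1C3, the estimate was 0.17 (adjusted p 0.308 in limma), and any shared reads that the counting left out are missing from this sum too. With the mitochondrial genes taken out of the scaling, AKR1C1 was at 0.38 and AKR1C2 at 0.32.

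No member was called for trametinib in AsPC-1, and neither was any other gene (0% of 19122). An unadjusted p under 0.05 was reached by 3 of the 7 members, AKR1B10, AKR1C1 and AKR1C2, and by 14.1% of all genes. The 2 libraries with trametinib were both above the 2 without for 5 members, these 3 with AKR1C3 and AKR7A2, and for 24% of all genes. The median change was 0.11 over the members and 0.016 over all genes.

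The call on AKR1C1 and AKR1C2 turned on which genes were tested with them. A narrower set, added after the data had been seen, held the 7907 genes that have a RefSeq mRNA and average 10 TPM or more. In this RefSeq set 332 genes passed (4.2%), 250 higher and 82 lower. AKR1C1 (adjusted p 0.0155 in limma) and AKR1C2 (adjusted p 0.024) were the 2 called of the 6 members in that set, which AKR1B10 did not enter. Among all 9368 genes of that average none passed and the adjusted p was 0.148 and 0.158. Marker lists also differed between these libraries. The 5 epithelial markers summed to 6869 to 6984 TPM without trametinib and 7671 to 8030 TPM with it. The 4 mesenchymal markers summed to 774 to 825 and 668 to 740 TPM, nearly all of it VIM. The 3 fibroblast markers summed to 103 to 111 and 145.7 to 145.8 TPM, nearly all of it LUM, while COL1A1 and DCN were at or under 0.121 TPM. Their part in the result was not tested. The leukocyte list summed to 3.31 to 3.62 TPM without trametinib and 3.98 to 4.10 TPM with it. Nearly all of that was CD14, with CD3E at 0 in all libraries. The endothelial list stayed at or under 0.018 TPM.

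In PANC-1 the trametinib estimate was 0.050 for AKR1B1 (95% interval -0.13 to 0.23), 0.11 for AKR1A1 (95% interval -0.064 to 0.28) and 0.022 for AKR7A2 (95% interval -0.13 to 0.17), and none was called, nor was any other gene (0%). Of all genes 4.81% had an unadjusted p under 0.05, and of the members AKR1C3 did, on values of 0.073 to 0.291 TPM.

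The difference between the lines in the trametinib response was estimated at -0.38 for AKR1C1 (95% interval -0.65 to -0.11), -0.31 for AKR1C2, -0.41 for AKR1B10 and -0.25 for AKR1C3. No member and no other gene was called for it (0%). At an unadjusted p under 0.05 there were 4 of 7 members, those just named, and 9.7% of all genes. In PANC-1 these 4 genes were under 0.3 TPM in every library. For AKR1C1, AKR1C2 and AKR1B10 the value is therefore mostly the AsPC-1 change with its sign reversed, and for AKR1C3 it also rests on levels near 0. The count thus says little about a difference in response.

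**Figure D3:**
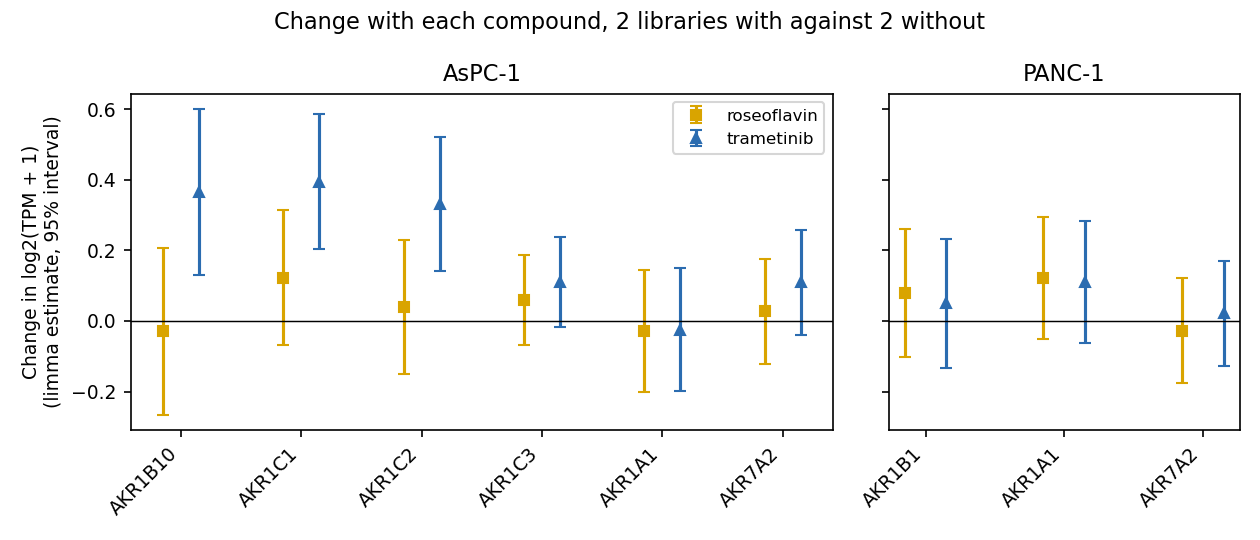
Change in log2(TPM + 1) with roseoflavin (squares) and trametinib (triangles) in AsPC-1 (left) and PANC-1 (right) for the members present in each line, as limma estimates with 95% intervals from 2 libraries with the compound against 2 without. The intervals of AKR1B10, AKR1C1 and AKR1C2 with trametinib in AsPC-1 lie above 0, and all others include 0. Each interval uses a spread pooled over both lines, including a line where the gene is near 0.

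Roseoflavin changed no member beyond the test's threshold in either line, and no other gene (0% in AsPC-1 and 0% in PANC-1). In AsPC-1 the estimates were 0.12 for AKR1C1 (95% interval -0.069 to 0.31), 0.039 for AKR1C2 (-0.15 to 0.23), 0.060 for AKR1C3 (-0.068 to 0.19), -0.029 for AKR1B10 (-0.27 to 0.21), -0.029 for AKR1A1 (-0.20 to 0.15) and 0.027 for AKR7A2 (-0.12 to 0.18). AKR1C1 was 1.15 times its vehicle level with roseoflavin alone and 1.03 times its trametinib level when roseoflavin was added. In PANC-1 the estimates were 0.12 for AKR1A1 (95% interval -0.052 to 0.30), 0.078 for AKR1B1 (-0.10 to 0.26) and -0.028 for AKR7A2 (-0.18 to 0.12). AKR1B10 and the AKR1C genes remained under 0.3 TPM in both PANC-1 libraries with roseoflavin. No member had an unadjusted p under 0.05, which 11.3% of all genes had in AsPC-1 and 10.8% had in PANC-1.

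The listed NRF2 targets outside the family mostly had higher levels with roseoflavin in PANC-1. These 26 genes cover glutathione and cystine handling (GCLC, GCLM, SLC7A11), thioredoxin and peroxiredoxin reduction (TXNRD1, SRXN1), haem breakdown (HMOX1) and quinone reduction (NQO1). They also cover NADPH supply and the pentose phosphate pathway (PGD, TALDO1, TKT, ME1). HMOX1, haem oxygenase, is the gene with the highest level among them in PANC-1, and OSGIN1, an oxidative stress response gene, had the largest change. OSGIN1 was at 5.71 TPM with vehicle and 14.7 with roseoflavin, and at 4.52 with trametinib and 15.4 with both. The OSGIN1 estimate was 1.40 (SE 0.116, adjusted p 0.221 in limma).

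For the cystine transporter SLC7A11 the PANC-1 levels were 6.61 and 12.1 TPM without trametinib and 6.87 and 13.8 TPM with it, without and with roseoflavin. NQO1 was at 165.7 and 242.1 TPM, and at 172.2 and 240.7 TPM. GCLM, the regulatory subunit of glutathione synthesis, was at 22.3 and 39.9 TPM, and at 22.5 and 39.6 TPM. For each of these genes both roseoflavin libraries were above both others.

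Over the list, 23 of 26 were higher and 3 lower with roseoflavin in PANC-1, with a median of 0.32 against 0 over all genes, and 17 had an unadjusted p under 0.05. Both roseoflavin libraries were above both others for 22 of the 26, for 2 of the 7 members (AKR1A1 and AKR1B1) and for 22.9% of all genes. They were below both others for 2 of the 7 members, AKR7A2 and AKR1C1, the latter at or under 0.115 TPM. The same held for 22.7% of all genes and for 1 of the 26. None was called over all genes, HMOX1 with an estimate of 1.32, ME1 with 0.84, SLC7A11 with 0.84, GCLM with 0.80, TRIM16L with 0.72, TXNRD1 with 0.72 and SRXN1 with 0.71. In the RefSeq set 117 genes passed (1.48%). There 14 of the 24 listed targets were called, all higher: NQO1, GCLC, GCLM, SLC7A11, TXNRD1, SRXN1, HMOX1, TKT, ME1, GSR, CBR1, EPHX1, PIR and TRIM16L. Of the 6 members in that set 0 were called, with adjusted p from 0.346 to 0.928 in limma. AKR1C1, AKR1C2 and AKR1C3 entered that set only through AsPC-1. Their PANC-1 levels were at most 0.115, 0.024 and 0.291 TPM, so the test could hardly call them there.

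In AsPC-1, where AKR1B10 and the AKR1C genes are present, the list had 23 of 26 higher with roseoflavin, a median of 0.13 against -0.028 over all genes, and 7 genes at an unadjusted p under 0.05. Both roseoflavin libraries were above both others for 14 of the 26, for 0 of the 7 members and for 10.6% of all genes. They were below both others for 0 of the 26, for 0 of the 7 members and for 21.6% of all genes. Among the estimates furthest from 0 were 0.40 for SLC7A11, 0.28 for TXNRD1, 0.27 for SRXN1, 0.24 for ALDH3A1, 0.21 for TRIM16L, 0.18 for CBR1 and -0.17 for HMOX1. In the RefSeq set 2.06% of genes passed in limma, among them SLC7A11 (adjusted p 0.0173), TXNRD1 (0.0393) and SRXN1 (0.0349). Again 0 of the 6 members passed, of which AKR1B1, near 0 in AsPC-1, entered only through PANC-1.

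**Figure D4:**
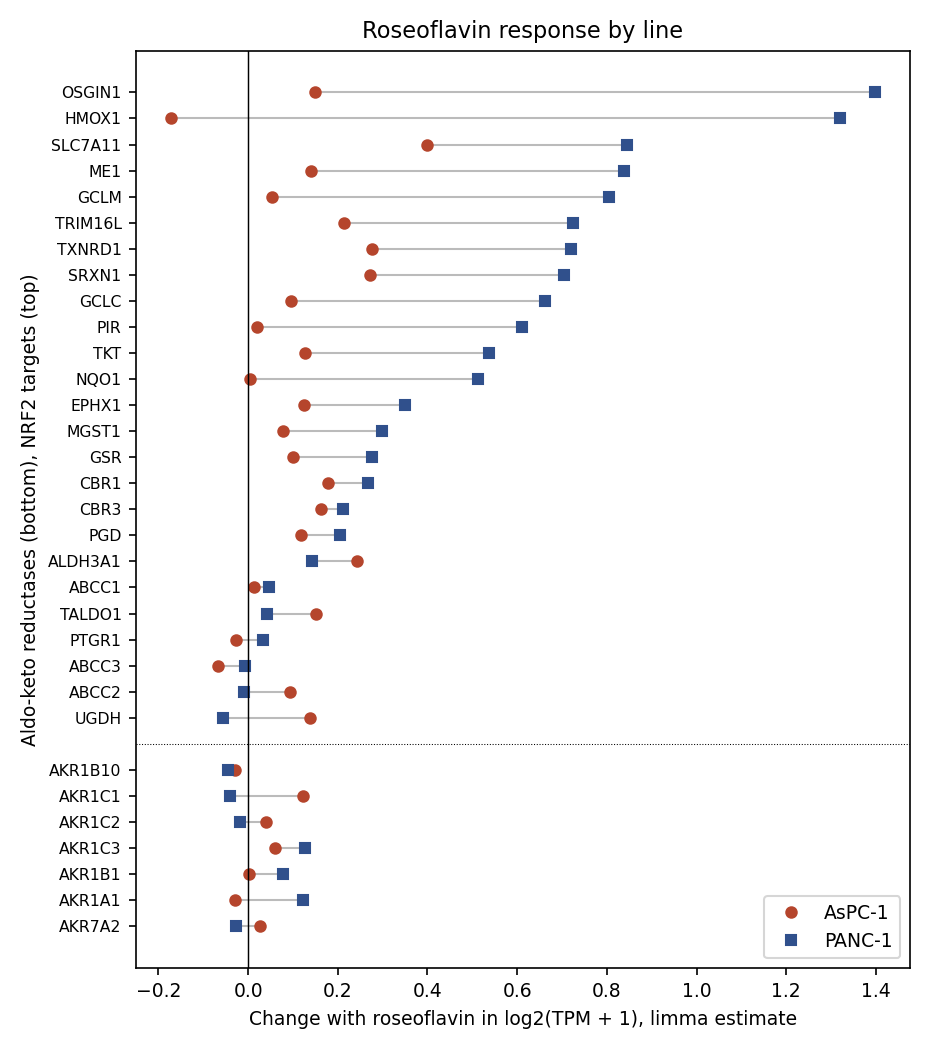
Change with roseoflavin in log2(TPM + 1) (horizontal axis, limma estimate from 2 libraries with it against 2 without) in AsPC-1 (circles) and PANC-1 (squares), for 25 of the 26 other NRF2 targets (top, ordered by PANC-1) and the 7 aldo-keto reductases (bottom). PANC-1 points of the NRF2 targets reach 1.40, and those of the aldo-keto reductases lie between -0.044 and 0.13. AKR1B10 and the AKR1C genes were near 0 TPM in PANC-1, where this scale hardly moves.

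The difference between the lines in the roseoflavin response was 1.49 for HMOX1, 1.25 for OSGIN1 and 0.75 for GCLM, with a median of 0.22 over the list, 22 of 26 positive, and 13 of 26 at an unadjusted p under 0.05 against 11.6% of all genes. For the members it ran from -0.16 (AKR1C1) to 0.15 (AKR1A1), with none at that p. No gene was called for it (0%). AKR1B10 and the AKR1C genes were near 0 TPM in PANC-1, so their values say little about a difference in response.

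With trametinib in AsPC-1, 16 of the listed NRF2 targets were higher and 10 lower, with a median of 0.039, and 7 of the 26 had an unadjusted p under 0.05, against 14.1% of all genes. Both trametinib libraries were above both others for 7 of the 26 and below both for 2, against 24% and 13.3% of all genes. The estimates furthest from 0 were -0.35 for CBR3, 0.34 for HMOX1, 0.21 for EPHX1, 0.18 for GCLM, -0.16 for SLC7A11, and 0.15 for each of NQO1, UGDH and TXNRD1. None was called, over all genes or in the RefSeq set. In PANC-1 the median was 0.022. Of the family's other genes, AKR1C4 had an estimate of 0.29 and AKR7A3 of 0.24 with trametinib in AsPC-1, and none was called.

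NFE2L2, the gene of NRF2, was at 17.4 to 19.3 TPM in AsPC-1 and 24.9 to 26.9 TPM in PANC-1, and KEAP1 at 40.9 to 45.9 and 59.9 to 66.4 TPM. With roseoflavin the NFE2L2 estimates were -0.090 for AsPC-1 and 0.074 for PANC-1, and those of KEAP1 were 0.075 and 0.13. Of the 8 regulators, SQSTM1, which sequesters KEAP1, went from 326.9 to 426.2 TPM with roseoflavin in PANC-1, or from 325.2 to 425.4 TPM on a trametinib background, and BACH1, a repressor at the same motif, from 7.96 to 10.1 TPM and from 7.88 to 10.3 TPM. These 2 passed in the RefSeq set (adjusted p 0.00658 and 0.0432 in limma) and no regulator was called over all genes.

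Over both lines together limma called 0% of genes for roseoflavin and 0% for trametinib, with 1358 and 938 genes at an unadjusted p under 0.05 and no member among them, and the member estimates ran from -0.037 to 0.093 and from -0.014 to 0.21. The departure of the combination from the sum of the compounds was between -0.075 and 0.12 for the members, with 0% of genes called in limma and 536 genes, none a member, at an unadjusted p under 0.05.

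The genes whose levels followed AKR1C1 most closely were sought among 8629 named genes averaging 10 TPM or more, by Pearson r of log2(TPM + 1) over the 8 libraries after the mean of each line was taken out. They were XPR1 (0.993), MIR141 (0.987) and GPX2 (0.986), with AKR1C2 in place 8 (0.982). For AKR1C2 they were GPX2 (0.990), HPGD (0.989) and YWHAZ (0.987), with AKR1C1 in place 6, and for AKR1B10 ZNF511-PRAP1 (0.988), MUC13 (0.983) and TDP2 (0.982). AKR1C3 had EIF1B (0.967), THUMPD3 (0.952) and ABITRAM (0.947) nearest, and an r of 0.464 with AKR1C1. These values describe 8 points that share treatments and scaling, and they are the highest among many genes. AKR1C1, AKR1C2 and AKR1B10 were at or under 0.115 TPM in PANC-1, so their r rests mostly on the 4 AsPC-1 libraries. The r values of AKR1C3 depend on its PANC-1 values of 0.073 to 0.291 TPM. Over the 4 AsPC-1 libraries alone its r was 0.982 with AKR1C1 and 0.894 with EIF1B.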

How the data were processed

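RNA was measured in 8 libraries by polyadenylated RNA sequencing with a stranded kit, per the labels' protocols. The authors deposited 1 table of TPM per gene, with 1 column per line and treatment, per the file headers. The submitters' processing notes name STAR 2.7.3a, HTSeq 2.0.2 and hg38, and the handling of reads shared by paralogs is not given in the sources used here. The table had 62649 genes, and every library summed to 1000000 TPM, so depth is unknown and no counting interval could be given.

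Samples were grouped by their labelled line and treatment. Values were analysed as log2(TPM + 1) for the 19122 genes that reached 1 TPM in 2 libraries or more. All were fitted together in limma 3.58.1 (R 4.3.3), using lmFit and then eBayes with trended prior variance, two-sided, with Benjamini-Hochberg adjustment and a threshold of 0.05. The difference between lines and the effects over both lines came from an additive model (4 residual degrees of freedom), effects within a line and their difference from a model with line-by-compound terms (2 residual degrees of freedom), and 95% intervals from the same fits. The model with line-by-compound terms was run on simulated data for trametinib in AsPC-1 only, and the other models were not.

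The members and the lists were chosen with earlier results of these data known. The genes named were the 7 members, NFE2L2 and KEAP1, and of each list the genes past the threshold (here in the RefSeq set) or otherwise up to 8 with the largest change, with the 3 nearest genes by r. LUM was named after its values were seen. Alternatives were quantile normalization, no filter, a mean of at least 10 TPM, a pseudocount of 0.1, no variance trend, 1 interaction at a time, each line alone, the AKR1C genes summed and each library left out, and, added later, TPM without mitochondrial genes and the RefSeq filter. The values of 1 listed NRF2 target are not reported here by name, and it stays in the counts. TRIM16L has 2 identifiers, of which the first was used. Coordinates and coding sequences come from GENCODE 29, promoters from RefSeq.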

Additional observations from a re-analysis of the deposited data

How the results depend on the processing

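Over 35 single values of the members and 550 alternative values, 528 kept their direction and their side of the threshold, 2 passed it newly and 20 changed sign. The 2 were AKR1C1 (0.39, adjusted p 0.0155 in limma) and AKR1C2 (0.33, adjusted p 0.024) with trametinib in AsPC-1 in the RefSeq set, which brought the members called there from 0 to 2 and all genes called from 0 to 332. For roseoflavin the RefSeq set brought all genes called from 0 to 163 in AsPC-1 and to 117 in PANC-1, with no member among them. Across the alternatives the adjusted p of AKR1C1 and AKR1C2 with trametinib in AsPC-1 reached 0.568 in limma. Many of these alternatives could not change an estimate, only its p-value. These were the filters and the variance trend. For estimates within a line they also included each line alone and the libraries of the other line left out. The AKR1C sum was entered once for each of its genes. The 528 therefore overstates how many separate checks were passed. All sign changes were in values that did not pass the threshold, and the cause was not tested. With quantile normalization the roseoflavin change was 0.0016 for AKR7A2 over both lines, and 0.0071 for AKR1A1 and 0.0224 for AKR1B10 in AsPC-1. With each library left out in turn, a lone library being assumed to vary like the others, the change with roseoflavin ran from -0.0381 to 0.0234 for AKR7A2 over both lines, and in AsPC-1 from -0.1272 to 0.0703 for AKR1A1, from -0.1016 to 0.0432 for AKR1B10, from -0.0185 to 0.0973 for AKR1C2 and from -0.0524 to 0.1063 for AKR7A2. The trametinib change of AKR1A1 in AsPC-1 ran from -0.1237 to 0.0738, the difference between lines in the roseoflavin change of AKR7A2 from -0.1343 to 0.0245, and the interaction of the compounds for AKR1A1 from -0.0453 to 0.2189. Of the estimates within a line that kept their sign, leaving out a library moved 4 by over 1.5 times, none of them past the threshold: trametinib for AKR7A2 in AsPC-1 (0.0296 to 0.1884) and AKR1B1 in PANC-1 (0.0021 to 0.097), and roseoflavin for AKR1C1 in AsPC-1 (0.047 to 0.1971) and AKR1B1 in PANC-1 (0.0306 to 0.1256). Depth is unknown, so levels near 0 cannot be told from absence.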
